A study of Homo sapiens with 6 samples.

Results

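The imprinted genes were followed in RNA-seq of HEK293T cells, with and without the histone deacetylase inhibitor valproic acid (VPA). They are a list of 37 symbols of genomically imprinted genes, all 37 found among the 47470 genes of the count files, and they were grouped by imprinted domain into 11p15, 14q32, 15q11, 7q21, 7q32 and a mixed class of other loci. HEK293T cells derive from human embryonic kidney and express the large T antigen of SV40. The untreated group (labelled WT, with no treatment) was 3 libraries, and the VPA-treated group was 3 libraries of the same line after 1 day in 1 mM VPA, with no genetic change named in either. Nothing states that the 3 libraries of a group came from separate cultures of cells, so that p-values measure the spread between these libraries, which may be technical. The counts could not tell the parental alleles apart, and imprinting itself was not measured.

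Imprinted genes are expressed mainly from the allele of a single parent, and which allele is silent is set by DNA methylation laid down in the germ line at imprinting control regions. Most lie in clusters, in which a long non-coding RNA, an insulator or a shared promoter governs several neighbours at once. Many act on fetal and placental growth, on energy balance or on the developing brain, and loss of the active copy underlies growth and neurodevelopmental syndromes such as those of Beckwith-Wiedemann, Prader-Willi and Angelman.

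Reads on genes totalled between 18622267 and 18828495 per library, and values are normalized counts (scaled by TMM to the mean library) unless stated otherwise. Of 9 genes typical of this line all 9 were counted, VIM, KRT18 and NEFM among them, with a summed level of 19000 to 19400 in untreated and 21760 to 23050 in VPA-treated libraries. Of 11 markers of blood, fibroblasts, endothelium and liver, 4 were at 0 in every untreated library (PTPRC, CD3E, HBB and HBA1). Their summed level was 457 to 498 in untreated and 1526 to 1705 in VPA-treated libraries, carried by the fibroblast genes COL1A1, LUM and DCN, and its part in the results was not tested. In bulk RNA, a change in the share of cells that express a gene and a change in RNA per cell cannot be told apart.

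Of the 37 imprinted genes 9 were at 0 in all 6 libraries, 24.3% against 44.5% of all listed genes. A further 7 had counts but fell below the filter on low counts, and 21 were tested. A gene was called where its adjusted p was under 0.05 and its log2 fold change reached 1 or -1. Of the 21, 3 were up-regulated in VPA-treated cells (MAGEL2, PHLDA2 and PEG13) and 0 down-regulated, against 12.0% and 0.503% of all 15298 tested genes. By the adjusted p alone 11 were higher and 3 lower, which is 52.4% and 14.3% of those tested, against 32.9% and 30.0% of all tested genes. The median log2 fold change of the 21 was 0.26, beside 0.0058 for all tested genes. The balance over all tested genes depended on the scaling of the libraries, with 5037 higher and 4591 lower genes by TMM, 6713 and 2372 by library totals, and 9235 and 862 when scaled to ribosomal protein genes. A gene that passed the filter only through its counts in VPA-treated cells had to be higher there, which bears on MAGEL2 and PEG13, both under 10 raw counts in each untreated library, and no test was made over the list.

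**Figure D1:**
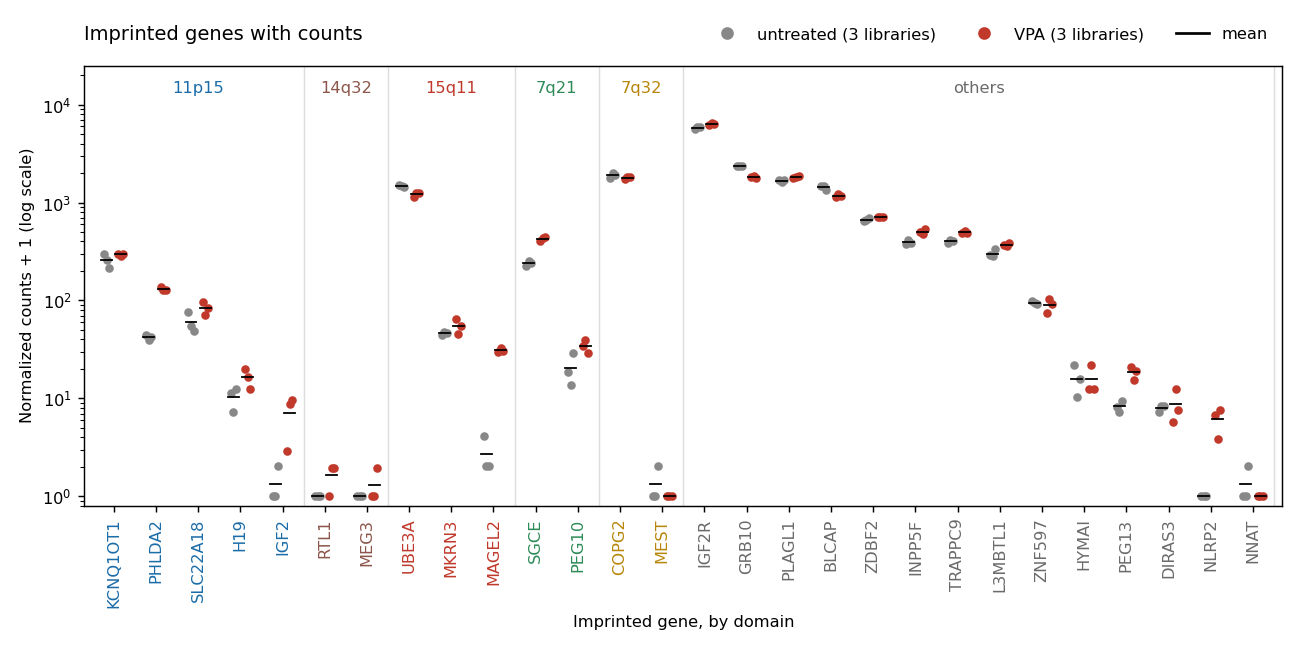
Normalized counts plus 1 (log axis) of the 28 imprinted genes with any count, by domain, with 1 point per library (grey untreated, red VPA-treated) and a line at the group mean. MAGEL2, PHLDA2 and SGCE show VPA-treated libraries well above the untreated ones, and the genes of 14q32 lie at 0 to 1 counts.

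Among the 6 tested imprinted genes with a mean under 50 normalized counts 2 were up-regulated (29.4% of all tested genes in that class), among the 8 with 50 to 500 there was 1 (16.5%), and among the 7 with 500 and over there were 0 (1.44%). By the adjusted p alone, 3 of 6, 6 of 8 and 2 of 7 were higher in these classes, where 40.9%, 47.6% and 19.4% of all tested genes were, and 0 of 6, 0 of 8 and 3 of 7 were lower, where 6.31%, 16.1% and 49.7% were. The imprinted genes called up-regulated were thus near the share of other genes of the same level.

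**Figure D2:**
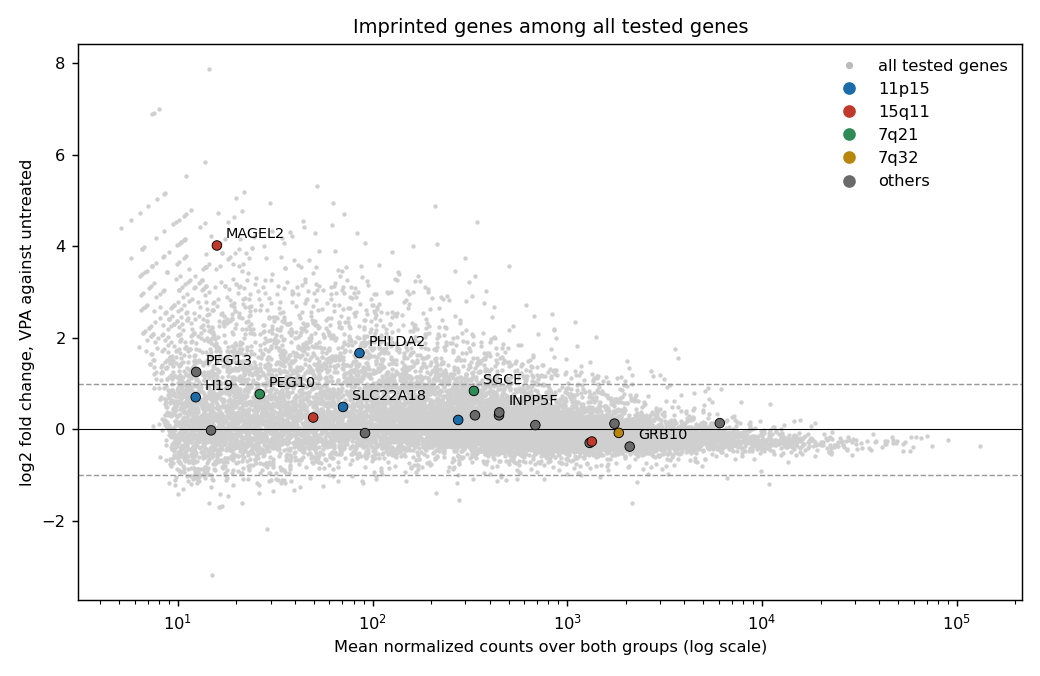
log2 fold change of VPA-treated against untreated cells over the mean normalized count (log axis) of each tested gene, with the 15298 genes in grey, the 21 imprinted genes in colour by domain, and dashed lines at a log2 fold change of 1 and -1. The imprinted genes lie within the cloud of genes of like level, MAGEL2 near its upper part at 4.02.

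In the 15q11 domain, the Prader-Willi and Angelman region, MAGEL2 rose from near silence while its neighbour NDN had no counts at all. MAGEL2 encodes a MAGE family protein that enhances a ubiquitin ligase in endosomal recycling, is usually expressed from the paternal allele and is lost in Schaaf-Yang syndrome. It had 3.10, 1.05 and 1.05 normalized counts in untreated and 28.7, 31.8 and 29.7 in VPA-treated libraries. All VPA-treated libraries were far above all untreated ones. The log2 fold change was 4.02 (standard error 0.40, adjusted p = 1.67e-08 by edgeR's quasi-likelihood test with Benjamini-Hochberg adjustment, as for all adjusted p-values unless another tool is named), 4.68 without untreated replicate 1, and 3.10 with a prior count of 2. Only 5 raw counts stood behind the untreated mean, and the ratio of counts of 17.3 had a counting interval of 7.15 to 54.5 (95%, exact binomial, counting error only). MAGEL2 passed the filter only through the VPA-treated libraries, so that it had to be higher there.

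NDN encodes necdin, a growth suppressor of neurons from the same MAGE family, and it lies 37532 bases from MAGEL2 on the same strand. It was at 0 in every library, although its exons are shared with no other gene of GENCODE 44. The 250 bases upstream of the starts of MAGEL2 and NDN differ in base composition, with 8 CpG dinucleotides and 57.2% G and C in MAGEL2 against 30 and 73.2% in NDN. Whether this difference bears on the counts was not tested. The bases are shown because MAGEL2 was counted and the adjacent NDN was not, 5' to 3' on the minus strand of GRCh38.p14 as RefSeq gives them, with each CpG in capitals, at chr15:23647868-23648117 for MAGEL2 and chr15:23687306-23687555 for NDN.
MAGEL2: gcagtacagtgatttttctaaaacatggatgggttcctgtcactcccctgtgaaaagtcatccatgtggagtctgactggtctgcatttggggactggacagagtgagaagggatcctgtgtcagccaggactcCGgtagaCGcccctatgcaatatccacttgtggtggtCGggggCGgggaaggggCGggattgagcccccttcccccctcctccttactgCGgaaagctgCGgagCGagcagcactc
NDN: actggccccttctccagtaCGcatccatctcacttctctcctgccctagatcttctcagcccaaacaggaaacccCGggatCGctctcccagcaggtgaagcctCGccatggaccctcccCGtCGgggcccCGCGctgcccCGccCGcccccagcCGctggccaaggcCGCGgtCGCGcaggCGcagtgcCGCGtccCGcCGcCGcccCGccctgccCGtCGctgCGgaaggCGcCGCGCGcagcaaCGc

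MKRN3, an intronless ubiquitin ligase gene whose loss brings early puberty, lies on the other side of MAGEL2 on chromosome 15 from 23565674 to 23568044. It had 43.4, 47.1 and 45.1 normalized counts in untreated and 64.1, 44.3 and 53.6 in VPA-treated libraries. The groups overlapped, and the log2 fold change of 0.26 (standard error 0.17) did not pass the test (adjusted p = 0.198). It was 0.11 without VPA replicate 1, and it passed when scaled to ribosomal protein genes (0.53, adjusted p = 0.00908). UBE3A, the ubiquitin ligase of Angelman syndrome, which is expressed from the maternal allele in neurons and from both alleles in most other cells, had 1501, 1458 and 1426 normalized counts in untreated and 1135, 1255 and 1251 in VPA-treated libraries. Each VPA-treated library lay below each untreated one. It fell by 0.27 on the log2 scale (standard error 0.050, adjusted p = 7.47e-05), but with the libraries scaled to ribosomal protein genes the change was 0.0014 (adjusted p = 0.984).

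SNRPN, a spliceosome core protein gene active in neurons, and SNURF, the short reading frame upstream of it on the same transcript, were both listed at 0 in every library. These genes overlap on the same strand, and in GENCODE 44 SNRPN shares 813 exonic bases with SNURF, which are 23.9% of the exons of SNRPN and 52.1% of those of SNURF. The counting sets aside a read that falls on 2 genes as ambiguous, and 1.97% to 2.10% of reads per library were of that kind, so a count of 0 does not show that either gene was silent. They share a RefSeq start, in the Prader-Willi imprinting center, and with it the 250 upstream bases at chr15:24954737-24954986 (plus strand), shown for that reason with each of the 12 CpG in capitals.
SNRPN and SNURF: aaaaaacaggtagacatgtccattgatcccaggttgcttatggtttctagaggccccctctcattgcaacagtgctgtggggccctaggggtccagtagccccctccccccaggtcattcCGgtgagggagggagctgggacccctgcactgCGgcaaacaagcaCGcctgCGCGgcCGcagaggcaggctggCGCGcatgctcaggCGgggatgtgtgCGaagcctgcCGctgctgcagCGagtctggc

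Other genes of the region, non-coding and protein-coding, were listed at 0 as well. Of 16 such genes 9 were at 0 in every library, 56.2% against 44.5% of all listed genes, and the difference was not tested. These were the non-coding SNORD host transcript SNHG14, PWAR5, PWAR6, PWARSN, PWRN1 and IPW, and the protein-coding NPAP1, ATP10A and GABRA5. In GENCODE 44 all exonic bases of PWAR5 are shared with other genes on the same strand. Its count of 0 therefore does not show that it was silent. Of the 6 tested, 2 were higher and 3 lower by the adjusted p, against 32.9% and 30.0% of all tested genes. The smallest adjusted p were those of NIPA1, a membrane magnesium transporter gene, at a log2 fold change of 0.40, CYFIP1, of the actin-regulating WAVE complex, at -0.22, and NIPA2 at -0.20. The 3 lower genes were no longer called with library totals (0 lower, where 2372 of all 15298 tested genes were lower).

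In the 11p15 domain of IGF2 and KCNQ1, PHLDA2 of the centromeric side rose, and SLC22A18 beside it was higher by a smaller step. PHLDA2, on chromosome 11 from 2928273 to 2929420, encodes a pleckstrin homology protein that restrains placental growth and is expressed from the maternal allele. It had 43.4, 38.7 and 40.9 normalized counts in untreated and 136, 128 and 127 in VPA-treated libraries. The spread within each group was small beside the difference, and the groups did not overlap. The log2 fold change was 1.67 (standard error 0.13, adjusted p = 5.28e-10), and between 1.62 and 1.70 with each library left out.

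SLC22A18, which encodes a transporter-like membrane protein and is also maternally expressed, had 75.5, 53.3 and 47.2 normalized counts in untreated and 94.8, 69.3 and 83.2 in VPA-treated libraries. The first untreated library lay above the second VPA-treated one. The log2 fold change of 0.49 (standard error 0.17, adjusted p = 0.0152) no longer passed without untreated replicate 2 or 3 or VPA replicate 1 (adjusted p = 0.0755, 0.0909 and 0.0782 at 0.42, 0.35 and 0.38) or with DESeq2 (adjusted p = 0.0954). KCNQ1OT1 is the paternally expressed antisense RNA that runs through KCNQ1 and silences its neighbours in cis. It had 299, 256 and 213 normalized counts in untreated and 300, 286 and 299 in VPA-treated libraries. The untreated libraries were the more spread, and the log2 fold change of 0.20 (standard error 0.095) missed the threshold (adjusted p = 0.0689). Without untreated replicate 1 it was 0.32 (adjusted p = 0.00364), and without each of the others between 0.080 and 0.22. It also passed by upper quartile (adjusted p = 0.0179), by library totals (0.00748), when scaled to ribosomal protein genes (0.47, adjusted p = 8.59e-05), with at least 10 counts in every library (0.0495) and with the replicate block (0.0181).

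The telomeric side holds H19, a maternally expressed RNA, and IGF2, a fetal growth factor whose paternal expression mirrors it through a shared insulator. H19 had 10.3, 6.27 and 11.5 normalized counts in untreated and 19.1, 15.4 and 11.5 in VPA-treated libraries. Its groups met at their edges, with a log2 fold change of 0.70 (standard error 0.34, adjusted p = 0.0744), and the change passed without VPA replicate 3 (0.87, adjusted p = 0.045), by library totals (0.83, adjusted p = 0.0389) and when scaled to ribosomal protein genes (0.97, adjusted p = 0.0133). IGF2 was below the filter, with raw counts of 0, 0 and 1 in untreated and 2, 8 and 9 in VPA-treated libraries. Every VPA-treated library was above every untreated one, and the ratio of 17.5 had a counting interval of 2.78 to 726. Without the filter IGF2 passed both thresholds (log2 fold change 3.70, standard error 0.96, adjusted p = 0.000459), and with DESeq2 as well (adjusted p = 0.0177). In GENCODE 44, 43.2% of its exonic bases are shared with other genes on the same strand, INS-IGF2 among them.

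Among 19 other genes of 11p15, 9 were tested, of which 3 were higher and 6 lower, against 32.9% and 30.0% of all tested genes. CDKN1C, a maternally expressed cyclin-dependent kinase inhibitor gene, was up-regulated, at 37.9 ± 8.14 in untreated and 77.3 ± 12.6 normalized counts in VPA-treated cells (SD, n = 3 each; log2 fold change 1.03, standard error 0.18, adjusted p = 3.14e-05). KCNQ1, a potassium channel gene on the strand opposite KCNQ1OT1, went from 33.7 ± 5.49 to 110 ± 14.6 (SD, n = 3 each; log2 fold change 1.70, standard error 0.16, adjusted p = 8.44e-09). OSBPL5, an oxysterol-binding protein gene, was higher by 0.70. The lower genes were MRPL23, CD81, TSSC4, NAP1L4, CARS1 and ZNF195, with log2 fold changes between -0.37 and -0.16, and 0 genes were lower with ribosomal protein scaling. Under that scaling 862 of all 15298 tested genes were lower. MRPL23, CD81, TSSC4, NAP1L4 and CARS1 had means over 500 normalized counts, a class in which 49.7% of all tested genes were lower.

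In 7q21, both imprinted genes were higher by the adjusted p, as were 32.9% of all tested genes. Among tested genes of the level of SGCE (50 to 500) 47.6% were higher, and of that of PEG10 (under 50) 40.9%. SGCE encodes epsilon-sarcoglycan, whose loss from the paternal allele causes myoclonus dystonia, and PEG10 is a gene derived from a retrotransposon whose gag-like protein forms capsid-like particles and is needed in the placenta. They are transcribed away from each other from RefSeq starts with 191 bases between them (PEG10 from 94656325 on the plus strand and SGCE up to 94656133 on the minus strand, chromosome 7). SGCE had 225, 250 and 238 normalized counts in untreated and 403, 433 and 440 in VPA-treated libraries, with no overlap. Its log2 fold change of 0.84 (standard error 0.075, adjusted p = 2.95e-09) was under the fold threshold. PEG10 had 17.6, 12.5 and 28.3 in untreated and 33.5, 38.5 and 27.7 in VPA-treated libraries. Untreated replicate 3 and VPA replicate 3 overlapped, and the log2 fold change of 0.77 (standard error 0.26, adjusted p = 0.0127) was 1.13 without untreated replicate 3, past both thresholds, and no longer passed without untreated replicate 2 (0.53, adjusted p = 0.0969), without VPA replicate 2 (0.65, adjusted p = 0.0664) or with DESeq2 (0.75, adjusted p = 0.096). In GENCODE 44, 219 exonic bases of these genes overlap on opposite strands.

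Other genes of 7q21 did not share one direction. Of 8 tested genes 5 were higher and 2 lower, against 32.9% and 30.0% of all tested genes, but 1 and 1 with DESeq2. That tool had 4231 higher and 4220 lower of all 19712 genes it tested. TFPI2, a protease inhibitor gene that is imprinted in placenta, was up-regulated, at 25.7 ± 3.63 in untreated and 52.1 ± 4.27 normalized counts in VPA-treated cells (SD, n = 3 each; log2 fold change 1.01, standard error 0.19, adjusted p = 7.04e-05), and its fold was just under the threshold with DESeq2 (0.99). CASD1, which encodes a sialic acid acetyltransferase and lies next to SGCE, fell by 0.77 on the log2 scale (adjusted p = 1.23e-06).

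In 7q32, MEST, a hydrolase-like gene active in mesoderm from the paternal allele, had 1 raw count over all 6 libraries. COPG2, which overlaps it tail to tail and encodes a subunit of the COPI vesicle coat, had 1757, 2013 and 1897 normalized counts in untreated and 1724, 1834 and 1807 in VPA-treated libraries. The groups overlapped (log2 fold change -0.079, standard error 0.050, adjusted p = 0.173), and the sign turned to 0.053 by library totals and to 0.19 when scaled to ribosomal protein genes (adjusted p = 0.00208). It was lower past the test without untreated replicate 1 (-0.13, adjusted p = 0.0161) and with the replicate block (adjusted p = 0.0439), and without untreated replicate 2 it was at -0.038. Their GENCODE 44 exons share 228 bases on opposite strands. Of the 5 tested neighbours 0 passed both thresholds, where 12.0% of all tested genes were up-regulated and 0.503% down-regulated. The 3 of smallest adjusted p were NRF1, at a log2 fold change of -0.29 (-0.018 when scaled to ribosomal protein genes), CEP41 at 0.28 and KLF14 at 0.68.

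In 14q32, the domain of DLK1 and MEG3, none of the 5 imprinted genes could be tested. DLK1, a membrane ligand related to those of Notch, and the maternally expressed RNAs MEG8 and MEG9 were at 0 in every library. MEG3, the maternally expressed RNA of the same domain, had 1 raw count, in a VPA-treated library, and RTL1, a retrotransposon-derived placental gene, had 2, also in VPA-treated libraries. A change in these genes was not detectable at this depth. Of the flanking genes 6 were tested, of which 2 were higher and 1 lower, against 32.9% and 30.0% of all tested genes. When scaled to ribosomal protein genes 5 were higher and 0 lower, where 9235 and 862 of all 15298 tested genes were. BEGAIN, a postsynaptic scaffold-associated gene, was up-regulated from 19.5 ± 3.29 to 71.6 ± 13.5 normalized counts (SD, n = 3 each; log2 fold change 1.87, standard error 0.20, adjusted p = 6.88e-08). SLC25A29, a mitochondrial carrier of basic amino acids, went from 451 ± 8.17 to 960 ± 29.0 (SD, n = 3 each; log2 fold change 1.09, standard error 0.056, adjusted p = 3.24e-13).

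**Figure D3:**
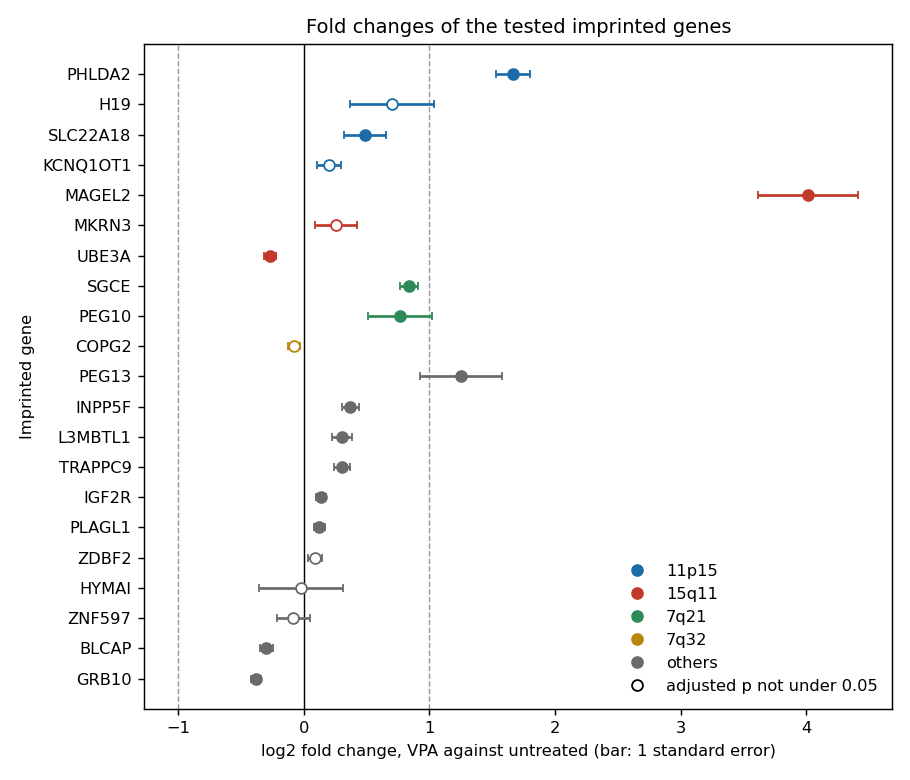
log2 fold change of VPA-treated against untreated cells for the 21 tested imprinted genes, with bars of 1 standard error, colour by domain and open points where the adjusted p was not under 0.05. Dashed lines mark a log2 fold change of 1 and -1, and MAGEL2, PHLDA2 and PEG13 lie beyond the upper one.

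Among the loci outside these clusters, 17 of the listed genes, 11 were tested, of which 6 were higher and 2 lower (32.9% and 30.0% of all tested genes). Several are pairs in which a gene lies inside another. PEG13, a paternally expressed RNA within an intron of TRAPPC9, had 7.24, 6.27 and 8.39 normalized counts in untreated and 20.1, 14.4 and 18.2 in VPA-treated libraries. All VPA-treated libraries were above the untreated ones, with a log2 fold change of 1.25 (standard error 0.33, adjusted p = 0.00209) on 76 raw counts. PEG13 passed the filter only through the VPA-treated libraries. In GENCODE, 20.8% of its exonic bases are shared with another gene on the same strand. TRAPPC9 also lies on that strand, and whether reads of either gene bear on the counts of PEG13 was not tested. TRAPPC9, a subunit of a vesicle tethering complex, had 382, 410 and 406 in untreated and 483, 512 and 485 in VPA-treated libraries. It was also higher throughout, by 0.31 (standard error 0.064, adjusted p = 0.000301).

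PLAGL1, a zinc finger transcription factor that restrains growth, and HYMAI, a non-coding RNA, share a promoter in the region of transient neonatal diabetes. PLAGL1 had 1706, 1634 and 1680 normalized counts in untreated and 1787, 1831 and 1849 in VPA-treated libraries. The groups did not overlap but lay close, with a log2 fold change of 0.12 (standard error 0.043, adjusted p = 0.0171), and the call was lost with DESeq2 (adjusted p = 0.136), without the filter (0.0846) and without untreated replicate 2, VPA replicate 2 or VPA replicate 3 (0.101, 0.0571 and 0.0693). HYMAI had 20.7, 9.41 and 14.7 in untreated and 11.5, 21.2 and 11.5 in VPA-treated libraries. Its log2 fold change of -0.024 was far inside its standard error of 0.33, and its sign turned with several settings. RefSeq gives PLAGL1 several starts, and the start shared with HYMAI has 32 CpG in the 250 upstream bases, at chr6:144008260-144008509 on the minus strand, shown as the shared promoter with CpG in capitals.
PLAGL1 and HYMAI: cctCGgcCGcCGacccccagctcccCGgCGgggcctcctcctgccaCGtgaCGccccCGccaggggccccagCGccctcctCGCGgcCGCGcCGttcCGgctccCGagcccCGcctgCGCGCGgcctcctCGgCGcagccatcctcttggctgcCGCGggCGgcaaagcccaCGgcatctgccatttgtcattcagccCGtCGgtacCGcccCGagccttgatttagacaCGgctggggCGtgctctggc

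BLCAP, which hosts NNAT in an intron and is imprinted in some isoforms in brain, had 1483, 1475 and 1355 normalized counts in untreated and 1140, 1216 and 1154 in VPA-treated libraries. The groups did not overlap, and it fell by 0.30 on the log2 scale (standard error 0.050, adjusted p = 2.29e-05), though by only 0.028 with ribosomal protein scaling (adjusted p = 0.65). NNAT, the neuronal proteolipid neuronatin, had 1 raw count over all 6 libraries. GRB10, an adaptor that restrains insulin and IGF receptor signalling and whose expressed allele depends on the tissue, had 2366, 2360 and 2372 normalized counts in untreated and 1832, 1854 and 1773 in VPA-treated libraries. The groups were far apart, and it fell by 0.38 (standard error 0.042, adjusted p = 7.44e-08), and stayed lower with ribosomal protein scaling (by 0.11, adjusted p = 0.0333).

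IGF2R, the mannose-6-phosphate receptor that clears IGF2 and is imprinted in a minority of people, had 5664, 5860 and 5834 normalized counts in untreated and 6216, 6441 and 6396 in VPA-treated libraries. Every VPA-treated library was higher, by 0.13 on the log2 scale (standard error 0.039, adjusted p = 0.00462). INPP5F, an inositol phosphatase gene with an imprinted brain isoform, had 379, 410 and 384 in untreated and 495, 480 and 539 in VPA-treated libraries, without overlap (log2 fold change 0.37, standard error 0.067, adjusted p = 6.32e-05). L3MBTL1, a chromatin-compacting reader of methylated lysine, had 288, 280 and 334 in untreated and 367, 359 and 388 in VPA-treated libraries. It was higher by 0.31 (standard error 0.078, adjusted p = 0.00173), and 21.7% of its GENCODE 44 exonic bases are shared with another gene on the same strand.

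ZDBF2, a paternally expressed zinc finger gene of the growth axis, had 641, 660 and 691 normalized counts in untreated and 704, 707 and 711 in VPA-treated libraries. The groups were apart by a narrow margin, and the log2 fold change of 0.091 (standard error 0.055) did not pass (adjusted p = 0.156), but did by upper quartile (0.16, adjusted p = 0.0187), by library totals (0.22, adjusted p = 0.00146) and when scaled to ribosomal protein genes (0.36, adjusted p = 5.09e-06). ZNF597, a maternally expressed zinc finger gene, had 98.3, 94.1 and 90.2 in untreated and 73.7, 102 and 90.9 in VPA-treated libraries, which overlapped (log2 fold change -0.084, standard error 0.13, adjusted p = 0.599). DIRAS3, a RAS-related growth suppressor, was below the filter with 44 raw counts and overlapping groups. NLRP2, an oocyte and embryo factor, was below the filter too, with raw counts of 0, 0 and 0 in untreated and 6, 3 and 7 in VPA-treated libraries, which is at least 4.90-fold higher when 3 counts over the untreated group are taken as the floor. It passed both thresholds without the filter (adjusted p = 0.000189) and with DESeq2 (adjusted p = 0.00597).

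PEG3, a zinc finger gene of maternal behaviour in mice, and ZIM2, which shares its first exons, were at 0 in every library, as was NAP1L5, a retrogene inside HERC3. PEG3 and ZIM2 share 1264 exonic bases on the same strand in GENCODE 44. Of 9 other genes around PEG3, 5 were also at 0 in every library, 55.6% against 44.5% of all listed genes. They were MIMT1, USP29, ZIM3, DUXA and ZNF835. The 4 tested there were not past the test, where 32.9% of all tested genes were higher and 30.0% lower. The smallest adjusted p were those of ZNF71, ZNF805 and ZNF264 (0.354, 0.437 and 0.83), and 4 genes are few for such a share.

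Per length the imprinted genes spanned a wide range. As RPKM (reads scaled by exon length and by the library total, with the union of GENCODE 44 exons as the length), the untreated level was 23.3 ± 1.41 for COPG2, 13.3 ± 0.387 for PLAGL1, 13.1 ± 0.129 for IGF2R and 12.3 ± 0.109 for GRB10 (SD, n = 3 each). PLAGL1 and IGF2R did not differ beyond their spread. BLCAP followed at 9.33 ± 0.515 and UBE3A at 3.92 ± 0.133 (SD, n = 3 each). PHLDA2 went from 2.28 ± 0.150 to 7.92 ± 0.291 and MAGEL2 from 0.0206 ± 0.0143 to 0.389 ± 0.0198 (SD, n = 3 each), so that MAGEL2 after VPA was still below SGCE in untreated cells (0.581 ± 0.0257). A union of exons can be longer than any 1 transcript, which lowers the RPKM, and that of SGCE was 20876 bases.

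By the allele that is usually expressed, paternal genes had 7 of 22 at 0 in every library and maternal genes 2 of 8. Genes whose allele varies had 0 of 7. These are 31.8%, 25.0% and 0%, against 44.5% of all listed genes. Of the 10 tested paternal genes 6 were higher and 0 lower by the adjusted p, with a median log2 fold change of 0.28. Among all tested genes 32.9% were higher and 30.0% lower. MAGEL2 and PEG13 are among the 6 and passed the filter only through the VPA-treated libraries. Most of the 10 had means under 500 normalized counts. Of all tested genes under 50 and of 50 to 500, 40.9% and 47.6% were higher and 6.31% and 16.1% lower. Of the 5 tested maternal genes 2 were higher and 1 lower, with a median of 0.49. The lower one was UBE3A, classed by its allele in neurons. Of the 6 tested genes whose allele varies by tissue, isoform or person, 3 were higher and 2 lower, with a median of 0.028. The difference between these classes was not tested, since genes of a cluster are not independent.

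Among the proteins that keep imprints, the direction depended on the scaling. Of 23 factors of DNA methylation, zinc finger recognition, insulation and histone methylation 17 were tested, of which 4 were higher and 10 lower, against 32.9% and 30.0% of all tested genes, with a median log2 fold change of -0.22. With library totals 6 were higher and 6 lower, and when scaled to ribosomal protein genes 7 were higher and 2 lower, with a median of 0.053. All 15298 tested genes shifted too, to 6713 higher and 2372 lower, and to 9235 and 862. The tested factors are abundant genes for the most part, a class in which 49.7% of all tested genes were lower. TRIM28, the corepressor that binds imprint-reading zinc finger proteins, was at -0.56, and still at -0.29 when scaled to ribosomal protein genes (adjusted p = 5.56e-06). DNMT1, the maintenance methyltransferase, was at -0.24 and the insulator protein CTCF at -0.37, but at 0.026 and -0.098 under that scaling (adjusted p = 0.60 and 0.0667). The de novo methyltransferases DNMT3A and DNMT3B were at 0.24 and 0.40. ZFP57, a zinc finger protein that recognizes imprinted methylation, had 2 raw counts, while ZNF445, of like function, had 1604 and 1650 normalized counts in untreated and VPA-treated cells (adjusted p = 0.448). CTCFL, the germ line paralog of CTCF, was the 1 factor past both thresholds, at 0, 2.09 and 1.05 normalized counts in untreated and 14.4, 19.2 and 25.8 in VPA-treated libraries. Its log2 fold change was 4.09 (standard error 0.55, adjusted p = 1.44e-06), with 3 raw counts behind the untreated mean, and it passed the filter only through the VPA-treated libraries.

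A further list of 24 genes reported or proposed as imprinted in some tissue gave 16 tested. Of these 6 were higher and 6 lower, against 32.9% and 30.0% of all tested genes. When scaled to ribosomal protein genes 10 were higher and 1 lower, where 9235 and 862 of all 15298 tested genes were. Past both thresholds were 4 genes, all up-regulated (3 with DESeq2), which is 25.0% of those tested, at any level, against 12.0% of all tested genes. All 4 had means under 50 normalized counts, a class in which 29.4% of all tested genes were up-regulated. The share of the list within that class was not taken. KCNK9, CTNNA3 and ANO1 passed the filter only through the VPA-treated libraries. ERAP2, an aminopeptidase of antigen processing, went from 16.7 ± 3.87 to 54.3 ± 3.17 normalized counts (SD, n = 3 each; log2 fold change 1.70, standard error 0.21, adjusted p = 3.75e-07). KCNK9, a potassium channel gene maternally expressed in brain, had a log2 fold change of 2.23, CTNNA3, an alpha-catenin gene, of 1.52, and ANO1, a chloride channel gene, of 1.43, with mean levels under 25 normalized counts in either group. GNAS, the stimulatory G protein gene with several imprinted promoters, was at -0.27, and at -0.0032 when scaled to ribosomal protein genes (adjusted p = 0.954).

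Of the imprinted genes 24 had a promoter window in the RefSeq table (GRCh38.p14, 300 bases around each start). The hexamer TGCCGC, which the imprint-reading protein ZFP57 binds when methylated, was searched on both strands. It stood in a window of 14 of the 24 genes, 58.3%, against 19.5% of all 27305 genes with a window and 30.9% of the tested genes among them. It was in 7 of the 14 tested imprinted genes and in 7 of the 10 that were not tested. A gene with more starts has more windows, and SNRPN with SNURF and PLAGL1 with HYMAI share windows that count for each. Per window it was in 22 of 49 of the imprinted genes, 44.9%, against 16.7% of all 35116 windows, and in 31.0% of those of tested imprinted genes against 23.9% of those of all tested genes. MAGEL2 had no match and NDN, SNRPN and SNURF had at least 1. A match is a description of these letters only, and it was not set against the base composition of the windows.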

How the data were processed

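RNA of HEK293T cells was sequenced with a strand-specific mRNA library protocol on DNBSEQ. The authors filtered reads by SOAPnuke, mapped them with STAR to hg38, and deposited raw counts per gene symbol from htseq-count, without normalization (STAR 2.7.10b and HTSeq 2.0.1 in the submitters' processing notes). The gene annotation and the strand setting are not given in the sources used here, so overlapping and antisense genes carry that limit. The 5 summary lines of the counting were left out, with reads off any gene at 6.80% to 7.69%, ambiguous reads at 1.97% to 2.10% and reads without a unique place at 2.81% to 2.92% of the reads listed.

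Groups came from the sample titles. The test was that of edgeR 4.0.16 under R 4.3.3 (TMM, filterByExpr with a count minimum of 10, robust quasi-likelihood fit, Benjamini-Hochberg adjustment over all 15298 genes tested), and standard errors are the absolute log2 fold change over the square root of the F statistic. DESeq2 1.42.0, other scalings, filters, a prior count of 2, the replicate block and leaving out each library were the alternatives. The counts of the other gene lists under these scalings and DESeq2 were added after seeing the data. The script was tested on simulated data. Replicates differed by more than sampling noise (chi-square per gene 1.62 to 4.63). Positions come from RefSeq on GRCh38.p14 (42828 symbols matched, 36 of the 37 imprinted genes), and exon lengths, strands and overlaps from GENCODE 44 (all 37), which may not be the annotation of the counting. The imprinted genes and the other lists were chosen with earlier results of these data known. Named were all imprinted genes and, of the neighbours, maintenance factors and other imprinted genes, those past both thresholds or, with none, the 3 of smallest adjusted p, while other names were chosen after their values were seen. A listed neighbour is not reported here and was left out of the counts of its list.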

Additional observations from a re-analysis of the deposited data

How the results depend on the processing

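The count of 3 up-regulated imprinted genes was 5 with DESeq2 and without the filter, where IGF2 and NLRP2 were added, 5 with ribosomal protein scaling, where SGCE (1.11) and PEG10 (1.04) were added, and 1 with at least 10 counts in every library, where MAGEL2 and PEG13 were not tested. All tested genes gave 1976 up-regulated of 19712 with DESeq2 and 2519 of 26353 without the filter. They gave 2505 of 15298 with ribosomal protein scaling and 1179 of 13882 with at least 10 counts in every library. Leaving out each library gave 3 to 4 up-regulated, 0 down-regulated, 8 to 12 higher and 3 to 4 lower imprinted genes. Among all 15478 to 15616 genes tested in these fits, 1874 to 1961 were up-regulated and 83 to 110 down-regulated. Higher were 4680 to 4983 and lower 4133 to 4528. The 3 lower imprinted genes became 1 with ribosomal protein scaling, GRB10, and the 11 higher ones became 16, and 14 by library totals. All 15298 tested genes moved alike, with 9235 higher and 862 lower by ribosomal protein scaling. Library totals gave 6713 higher and 2372 lower. By library totals and by ribosomal protein genes, the median over all tested genes moved to 0.137 and 0.275 on the log2 scale, and that of the 21 imprinted genes to 0.388 and 0.525. Over all genes, the count of down-regulated genes was 77, and 17 to 162 over the alternatives.

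Directions turned by library totals for COPG2 (0.053), HYMAI (0.11) and ZNF597 (0.047), by upper quartile for HYMAI (0.041), and by ribosomal protein genes for COPG2 (0.19), UBE3A (0.0014), HYMAI (0.24) and ZNF597 (0.18). Leaving out each library, HYMAI ranged from -0.38 to 0.28, with 0.12 without VPA replicate 1 or 3, and ZNF597 from -0.20 to 0.033. The cause was not tested. Of 311 comparisons of single genes 271 kept direction and side of the adjusted p, 15 became stronger, 13 weaker and 12 reversed. PHLDA2, SGCE, INPP5F, IGF2R, L3MBTL1, TRAPPC9, GRB10 and, where tested, MAGEL2 and PEG13 kept their side of the adjusted p under all alternatives run. MAGEL2 and PEG13 passed the main filter only through the VPA-treated libraries.

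With the replicate number as a block, 3 imprinted genes were up-regulated, 0 down-regulated, 12 higher and 4 lower. All 15298 tested genes gave 1835 up-regulated, 77 down-regulated, 5357 higher and 5100 lower with that block. Between same-numbered libraries, deviations from the group means had correlations of 0.126, 0.018 and 0.0708. Between libraries of unlike number they were lower for the most part, at -0.098 to 0.0313. The main fit did not pair the libraries, and whether the numbers pair them was not tested. Low counts limit MAGEL2, PEG13, IGF2 and NLRP2 most.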
